A study of Mus musculus with 8 samples.

Results

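The 10 genes described here encode NF-kB and the proteins that limit or redirect it. They are the subunit genes Nfkb1, Nfkb2, Rela and Relb, the genes of the IkB-type proteins Nfkbia, Nfkbie, Nfkbiz and Bcl3, and Tnfaip3 with its partner Tnip1. Members were the rows whose Ensembl identifier maps to these symbols, and all 10 were found among the 55421 gene identifiers of each library. This mapping uses no measured value, but the symbols were chosen with earlier results of these data known. RNA was sequenced from whole testis of wild-type male mice in 8 libraries, 2 in each of 4 groups. The LPS+DHEA+Nb group was injected with lipopolysaccharide (LPS), the bacterial outer membrane molecule sensed by Toll-like receptor signalling, and 6 h later with the androgen precursor dehydroepiandrosterone (DHEA) together with Nb23-bi, whose nature the labels do not state. The LPS+DHEA group received LPS and, 6 h later, DHEA without Nb23-bi. The LPS group received LPS with neither agent, and the CTRL group received phosphate buffered saline. All injections were intraperitoneal and single. No dose, age, strain or collection time is given in the labels, nor whether 2 libraries of a group are from different animals, so p-values measure the spread between these libraries, which may be technical. The labels name testis, whereas the RNA extraction protocol mentions islets, and germ cell markers such as Tnp1 and Prm1 were abundant in every library.

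NF-kB is a family of paired transcription factors that in resting cells is held in the cytoplasm by IkB proteins. Signals from Toll-like, interleukin-1 and tumour necrosis factor receptors activate the IkB kinase complex, IkB is degraded, and the freed factor enters the nucleus and induces inflammatory genes. Among those genes are its own inhibitors, so the transcripts of Nfkbia, Nfkbie, Tnfaip3 and Tnip1 form feedback loops, and in the testis the macrophages, Sertoli cells, Leydig cells and vessels are all known to use the pathway.

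The kB consensus is the 10-base DNA element to which these factors bind, and it was searched for on both strands of the RefSeq promoter windows, each from 250 bases before to 50 bases after a transcription start (GRCm38.p6). Windows were found for 7 of the 10 genes, and 6 of these held at least 1 match (all but Rela), against 5.14% of the 27025 genes with a window. Nfkb1, Relb and Nfkbiz had no window in the table used. The 250 bases before the start are shown for Tnip1, the listed gene that passed the test in LPS testis, and for Nfkbia and Nfkbie, the inhibitor genes with the highest and the lowest level per kilobase of exon in the list. They lie at chr11:54962941-54963190 (minus strand) for Tnip1, chr12:55492648-55492897 (minus strand) for Nfkbia and chr17:45555450-45555699 (plus strand) for Nfkbie. Each is written 5′ to 3′ on the strand of its gene, and capitals mark the match to the kB consensus.
Tnip1: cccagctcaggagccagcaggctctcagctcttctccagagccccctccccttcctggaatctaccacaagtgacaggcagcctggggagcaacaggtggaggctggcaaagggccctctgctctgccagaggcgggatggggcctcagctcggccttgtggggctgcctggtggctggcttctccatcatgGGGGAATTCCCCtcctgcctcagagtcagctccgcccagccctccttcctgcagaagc
Nfkbia: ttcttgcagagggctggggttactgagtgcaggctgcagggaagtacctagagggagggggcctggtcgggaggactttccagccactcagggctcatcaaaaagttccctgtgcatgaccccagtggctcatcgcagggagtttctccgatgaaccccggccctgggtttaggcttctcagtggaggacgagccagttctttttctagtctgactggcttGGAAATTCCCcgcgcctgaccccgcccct
Nfkbie: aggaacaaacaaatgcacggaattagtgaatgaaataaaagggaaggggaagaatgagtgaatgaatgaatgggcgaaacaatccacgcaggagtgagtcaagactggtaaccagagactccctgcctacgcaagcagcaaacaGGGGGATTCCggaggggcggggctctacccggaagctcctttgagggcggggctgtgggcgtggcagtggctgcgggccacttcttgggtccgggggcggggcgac

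The capitals in Tnip1 are 3 overlapping matches (GGGGAATTCC, GGGAATTCCC and GGAATTCCCC), of which the middle reads the same on both strands. The match in Nfkbia (GGAAATTCCC) is on the minus strand relative to the gene and begins 29 bases before the start, and that in Nfkbie (GGGGGATTCC) is on the plus strand and begins 106 bases before it. The window of Nfkb2 nearest its annotated 5′ end held the same palindrome as Tnip1 (GGGAATTCCC) and a separate match (GGGGCTTTCC), and its further windows held GGAATGTCCC and GGGACTTTCC. These further windows overlap, and the GGGACTTTCC found in each is the same site. The Bcl3 window held GGGAAGTCCC, and the upstream window of Tnfaip3 held GGGACACCCC and GGAAATCCCC. A match describes letters in these windows, and no binding was measured.

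**Figure D1:**
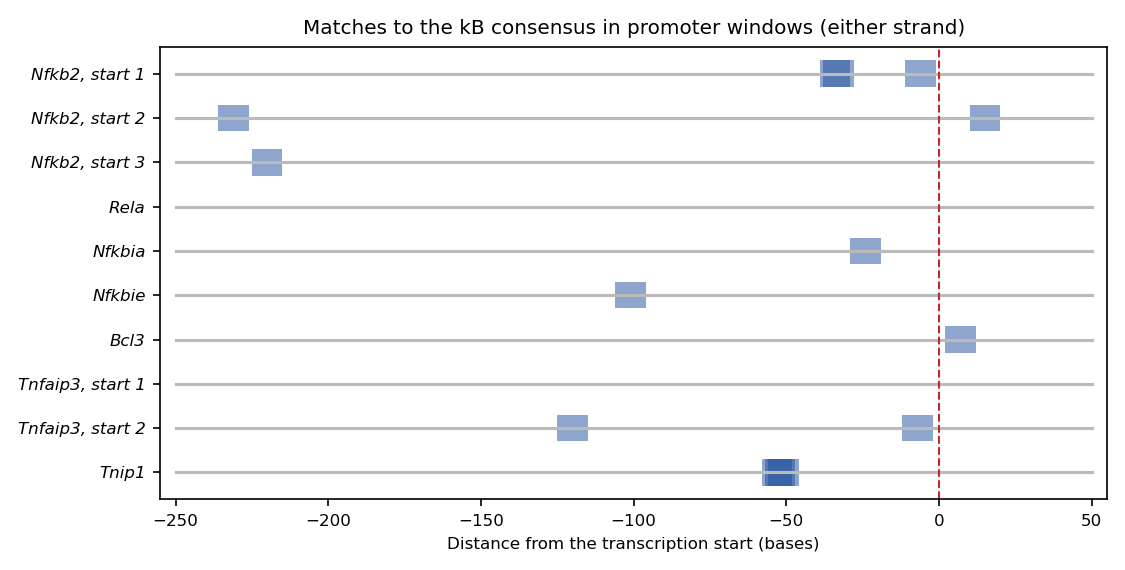
Position of each match to the kB consensus (blue blocks, either strand, darker where matches overlap) in the 10 promoter windows of the 7 listed genes that had a window, drawn against the distance from the transcription start in bases (red dashed line). 8 of the 10 windows hold a match, and the Rela window and 1 of the Tnfaip3 windows hold none. The windows of Nfkb2 starts 2 and 3 overlap and share the match GGGACTTTCC.

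Each library held 61.3 to 64.5 M counts, and at least 1 count was recorded for 30142 to 30626 genes. The listed genes had 74 to 3462 counts per library, and all 10 passed the filter on low counts. Levels are given as CPM (counts per 1000000 counts of the scaled library), and gene-to-gene comparisons as CPM per kilobase of merged exon. In whole testis, fewer cells of a type and less RNA per cell cannot be told apart.

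Per kilobase of exon, Rela was the most abundant listed transcript at a mean of 16.8 CPM per kb over the 8 libraries, followed by Nfkbia at 7.58. Neither overlapped its neighbour: Rela ranged from 15.9 to 18.4 CPM per kb, Nfkbia from 5.26 to 9.12, and Tnip1, the next at a mean of 3.31, from 2.14 to 4.37. Below Tnip1 came Nfkbiz (mean 2 CPM per kb), Bcl3 (1.72), Nfkb1 (1.38), Relb (1.06), Nfkb2 (0.853), Tnfaip3 (0.65) and Nfkbie (0.578), and each of these overlapped the next over the 8 libraries. The genes differed in how much they varied: the highest library exceeded the lowest by 1.16-fold for Rela and 1.38-fold for Nfkb1, against 2.67-fold for Tnfaip3, 2.38-fold for Bcl3 and 2.12-fold for Nfkb2.

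**Figure D2:**
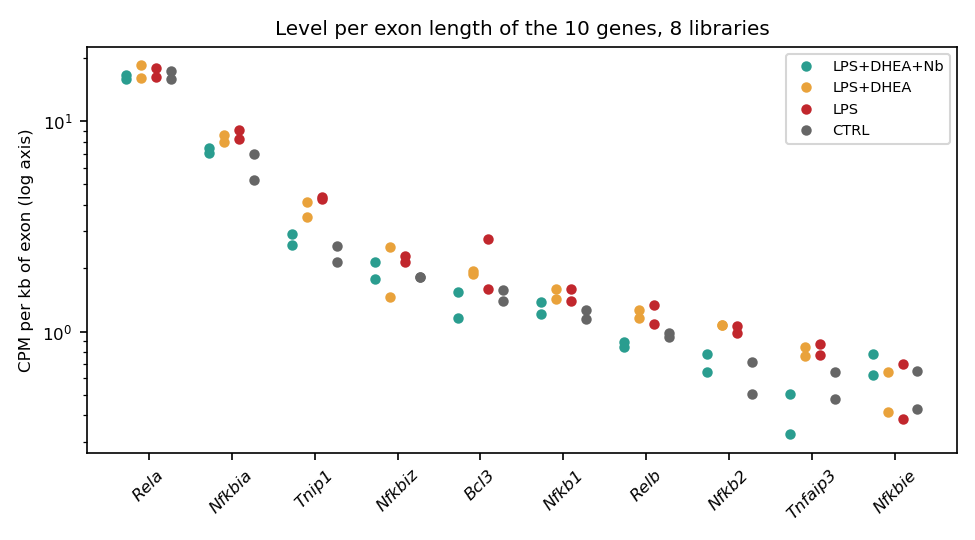
CPM per kilobase of exon (log axis) of the 10 genes, ordered by their mean, with 1 point per library and colours for the 4 groups (2 libraries each). Rela lies between 15.9 and 18.4 in all 8 libraries, while Tnfaip3 spans 0.325 to 0.869, with LPS+DHEA+Nb 2 lowest.

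Among the subunits, Rela, which carries the main transactivation domain of the classical dimer (chromosome 19, 5637483 to 5648130, GRCm38, plus strand), had 49 and 50.8 CPM in LPS+DHEA+Nb, 49.2 and 56.6 in LPS+DHEA, 49.8 and 54.6 in LPS, and 48.8 and 53.2 in CTRL. The 4 groups overlapped throughout. Nfkb1, which encodes the precursor of p50, the DNA-binding partner of Rela (chromosome 3, 135584655 to 135691547, minus strand), had 14.6 and 16.6 CPM in LPS+DHEA+Nb, 19.3 and 17.3 in LPS+DHEA, 19.2 and 16.7 in LPS, and 15.3 and 13.9 in CTRL. The LPS and LPS+DHEA libraries of Nfkb1 lay above all 4 others, by a margin that was narrow for LPS 2.

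Nfkb2 and Relb encode the partners of the alternative pathway, the precursor of p52 and the subunit it pairs with. Nfkb2 (chromosome 19, 46304320 to 46312385, plus strand) had 2.93 and 3.58 CPM in LPS+DHEA+Nb, 4.9 and 4.92 in LPS+DHEA, 4.85 and 4.49 in LPS, and 2.32 and 3.28 in CTRL. Relb (chromosome 7, 19606217 to 19629438, minus strand) had 3.45 and 3.28 CPM in LPS+DHEA+Nb, 4.93 and 4.5 in LPS+DHEA, 4.24 and 5.2 in LPS, and 3.8 and 3.67 in CTRL. In both genes the LPS and LPS+DHEA libraries lay above the other 4, and for Relb the LPS+DHEA+Nb libraries were also below both CTRL libraries. Exons of Nfkb2 overlap those of Psd on the opposite strand over 299 bases (6.5% of the merged exons) and those of a long noncoding RNA over 531 bases (11.6%), and the strand setting of the counting is not stated, so the Nfkb2 level is uncertain by the reads these may share.

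Nfkbia encodes IkB-alpha, the inhibitor that is degraded and made anew within a cycle of activation (chromosome 12, 55489410 to 55492647, minus strand). It had 12 and 11.4 CPM in LPS+DHEA+Nb, 13.8 and 12.8 in LPS+DHEA, 14.7 and 13.2 in LPS, and 8.47 and 11.2 in CTRL. The LPS and LPS+DHEA libraries were the 4 highest and the CTRL libraries the 2 lowest. Nfkbie, the gene of IkB-epsilon, a slower feedback inhibitor (chromosome 17, 45555703 to 45563169, plus strand), had 2.39 and 1.89 CPM in LPS+DHEA+Nb, 1.27 and 1.95 in LPS+DHEA, 1.17 and 2.14 in LPS, and 1.98 and 1.3 in CTRL. All 4 groups of Nfkbie overlapped, and its highest library was LPS+DHEA+Nb 1.

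Nfkbiz and Bcl3 encode nuclear IkB proteins, which bind NF-kB on DNA and can aid as well as limit transcription. Nfkbiz (chromosome 16, 55811375 to 55838899, minus strand) had 8.94 and 10.8 CPM in LPS+DHEA+Nb, 12.6 and 7.34 in LPS+DHEA, 10.8 and 11.4 in LPS, and 9.09 and 9.08 in CTRL. Its LPS+DHEA libraries were the highest and the lowest of the 8. Bcl3 (chromosome 7, 19808462 to 19822770, minus strand) had 2.86 and 3.8 CPM in LPS+DHEA+Nb, 4.62 and 4.79 in LPS+DHEA, 3.95 and 6.81 in LPS, and 3.44 and 3.88 in CTRL. LPS 2 stood highest for Bcl3, and LPS 1 lay just above the highest CTRL library.

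Tnfaip3 encodes A20, an enzyme that edits ubiquitin chains on signalling proteins and so ends the signal to the IkB kinase, and Tnip1 encodes a ubiquitin-binding protein that acts with it. Tnfaip3 (chromosome 10, 19000910 to 19015657, minus strand) had 3.64 and 2.35 CPM in LPS+DHEA+Nb, 6.1 and 5.5 in LPS+DHEA, 6.28 and 5.6 in LPS, and 4.62 and 3.47 in CTRL. The LPS and LPS+DHEA libraries were again the 4 highest, and LPS+DHEA+Nb overlapped CTRL. Tnip1 (chromosome 11, 54910785 to 54962917, minus strand) had 10.3 and 9.16 CPM in LPS+DHEA+Nb, 14.6 and 12.4 in LPS+DHEA, 15.1 and 15.5 in LPS, and 9.06 and 7.56 in CTRL. For Tnip1 the groups did not overlap at all, with LPS highest, LPS+DHEA next, LPS+DHEA+Nb below it and CTRL lowest.

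**Figure D3:**
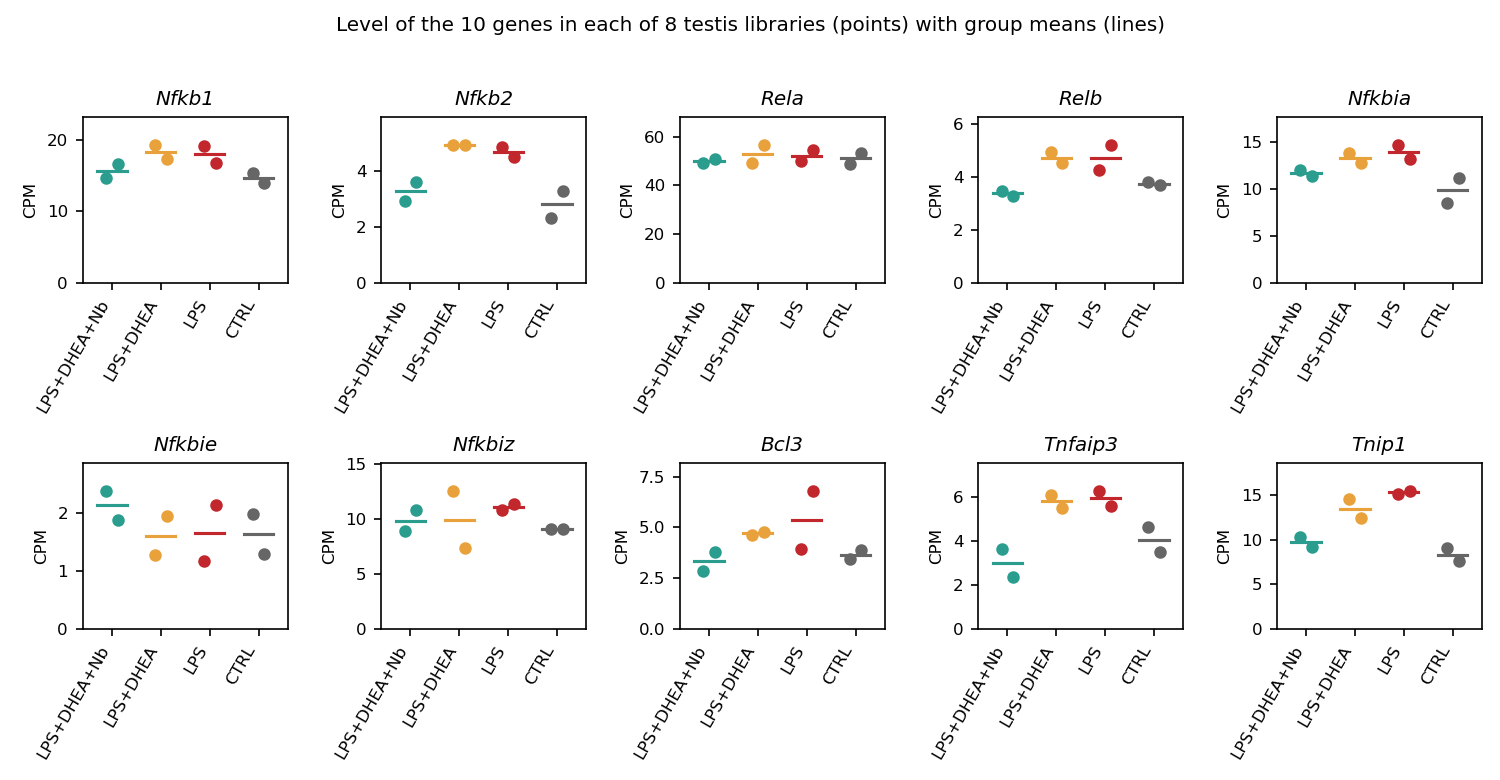
CPM of each listed gene in the 8 libraries (points) with the mean of each group (lines); each panel has its own axis from 0. In 7 panels (Nfkb1, Nfkb2, Relb, Nfkbia, Bcl3, Tnfaip3 and Tnip1) all LPS and LPS+DHEA points lie above all LPS+DHEA+Nb and CTRL points, as in 3.07% of all genes. This grouping was chosen after the values were seen and was not tested.

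In LPS testis against CTRL testis, Tnip1 rose, and it was the only listed gene called by edgeR's quasi-likelihood test at a Benjamini-Hochberg adjusted p under 0.05 over the 26414 genes tested. It averaged 15.3 ± 0.293 CPM in LPS and 8.31 ± 1.06 CPM in CTRL (SD, n = 2 each). Its log2 fold change was 0.88 (SE 0.15, 95% interval 0.54 to 1.21), with an adjusted p of 0.0467 by the edgeR test. The count of 1 among 10 stands beside 0.257% of all genes called higher. The fitted log2 fold changes of all 10 listed genes were above 0, as were 49.6% of all genes, and their median was 0.42 against -0.002 over all genes.

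The other 9 genes did not pass the adjusted threshold in that comparison. Nfkb2 had a log2 fold change of 0.74 (SE 0.23, edgeR adjusted p = 0.421), and Nfkbia had 0.5 (SE 0.16, edgeR adjusted p = 0.42). Bcl3 had 0.56 (SE 0.27) and Tnfaip3 0.55 (SE 0.24), with edgeR adjusted p-values of 0.73 and 0.686. Relb at 0.34, Nfkb1 at 0.3 and Nfkbiz at 0.29 followed, with edgeR adjusted p-values of 0.816, 0.683 and 0.878. Rela, at 0.03 with a 95% interval of -0.18 to 0.25, and Nfkbie, at 0.01 with an interval of -0.83 to 0.86, were nearest 0, but the Nfkbie interval is wide enough to hold most of the other values. At an unadjusted p under 0.05, 5 listed genes were higher in LPS (Nfkb1, Nfkb2, Nfkbia, Tnfaip3 and Tnip1), beside 4.26% of all genes. Both LPS libraries lay above both CTRL libraries in 8 listed genes (all but Rela and Nfkbie), beside 18.9% of all genes.

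The Tnip1 call was near the threshold. Leaving out CTRL 1, CTRL 2, LPS 1 or LPS 2 gave edgeR adjusted p-values of 0.0764, 0.217, 0.108 and 0.162, leaving out LPS+DHEA 1 or 2 gave 0.0607 and 0.0616, and over all 17 alternatives the fold change stayed between 0.75 and 1.01 on the log2 scale with adjusted p from 0.000283 to 0.217.

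When DHEA followed LPS, none of the 10 genes differed from LPS alone by the edgeR test, and the fitted values lay close to 0. The log2 fold changes of LPS+DHEA against LPS ran from -0.19 (Bcl3) to 0.07 (Nfkb2) with a median of -0.04, against 0.003 over all genes, and every edgeR adjusted p was 1. No listed gene had an unadjusted p under 0.05, beside 3.51% of all genes, and 0.0189% of all genes were called in either direction. DESeq2 and limma-voom also called none. The 95% intervals were -0.51 to 0.15 for Tnip1, -0.41 to 0.27 for Nfkbia, -0.2 to 0.24 for Rela and -0.57 to 0.5 for Tnfaip3. The intervals of all 10 genes held 0 and leave room for changes of either sign in each. They were widest for Nfkbie (-0.89 to 0.8) and Bcl3 (-0.78 to 0.39). Both LPS+DHEA libraries lay below both LPS libraries for Tnip1 alone among the listed genes (15.7% of all genes) and above them for Nfkb2 alone (16.1% of all genes).

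When DHEA was given with Nb23-bi, 9 of the 10 genes had fitted log2 fold changes below 0 against LPS alone and 1 (Nfkbie) above 0, beside 50.4% of all genes above 0, and none passed the edgeR test after adjustment. Tnfaip3 averaged 2.99 ± 0.909 CPM in LPS+DHEA+Nb and 5.94 ± 0.484 CPM in LPS (SD, n = 2 each), a log2 fold change of -0.99 (SE 0.25, edgeR adjusted p = 0.277). Tnip1 averaged 9.72 ± 0.786 CPM in LPS+DHEA+Nb and 15.3 ± 0.293 CPM in LPS, a log2 fold change of -0.65 (SE 0.15, edgeR adjusted p = 0.216). Bcl3 at -0.69, Nfkb2 at -0.52 and Relb at -0.49 had edgeR adjusted p-values of 0.686, 0.753 and 0.723. Nfkbia (-0.25), Nfkb1 (-0.2), Nfkbiz (-0.17) and Rela (-0.06) had smaller fitted differences, and Nfkbie had 0.37, all with edgeR adjusted p-values of at least 0.862. The median over the listed genes was -0.37, against 0.002 over all genes.

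That count of 0 stands beside 0.129% of all genes called lower in LPS+DHEA+Nb than in LPS. At an unadjusted p under 0.05, 5 listed genes were lower (Nfkb2, Relb, Bcl3, Tnfaip3 and Tnip1), beside 3.93% of all genes. Both LPS+DHEA+Nb libraries lay below both LPS libraries in 7 listed genes, beside 18.6% of all genes. With DESeq2, Tnip1 was called in this comparison (adjusted p = 0.0373, against 0.0373 to 0.682 over its 17 alternatives), beside 152 of 26414 genes called lower. The limma-voom fit called no listed gene. The LPS libraries are shared with the comparison against CTRL, so the opposite signs of the 2 comparisons are not independent: Tnip1 had 0.88 against CTRL and -0.65 here, Tnfaip3 had 0.55 and -0.99, and Nfkb2 had 0.74 and -0.52.

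**Figure D4:**
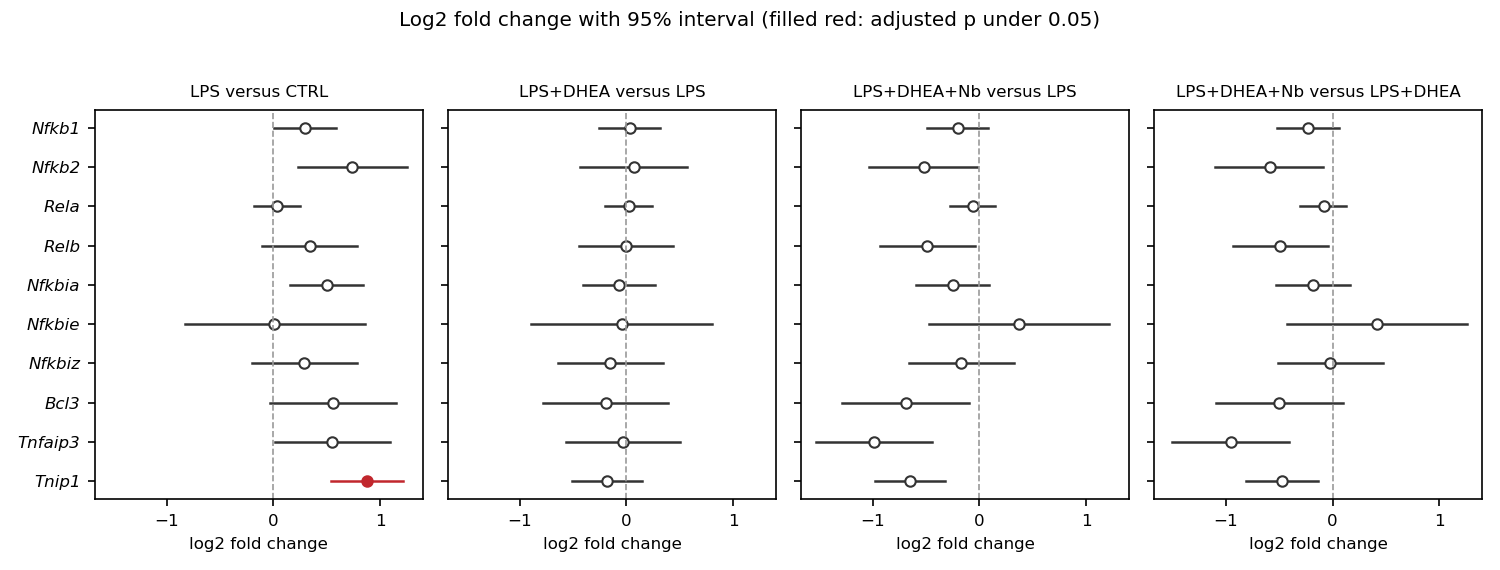
Fitted log2 fold change (points) of the 10 genes with 95% intervals (lines) in 4 comparisons; the red filled point is the value with an adjusted p under 0.05. Tnip1 in LPS versus CTRL, at 0.88, is the only filled point, and the LPS+DHEA versus LPS values all lie between -0.19 and 0.07.

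Adding Nb23-bi to DHEA was compared directly in the LPS+DHEA+Nb and LPS+DHEA libraries. The log2 fold change was -0.95 for Tnfaip3 (SE 0.25, edgeR adjusted p = 0.542), and Tnfaip3 averaged 2.99 ± 0.909 CPM in LPS+DHEA+Nb and 5.8 ± 0.429 CPM in LPS+DHEA (SD, n = 2 each). Tnip1 had -0.47 (SE 0.15, edgeR adjusted p = 0.901), Nfkb2 -0.59, Bcl3 -0.5 and Relb -0.49, the last 3 each with an edgeR adjusted p of 1. None of the 10 was called, beside 0.0871% of all genes in either direction, and 4 were lower at an unadjusted p under 0.05 (Nfkb2, Relb, Tnfaip3 and Tnip1), beside 2.68% of all genes. DESeq2 and limma-voom called none either. The libraries did not overlap in 7 genes, each lower in LPS+DHEA+Nb, beside 17.1% of all genes. The listed median was -0.35, against -0.002 over all genes.

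Both groups that received an agent after LPS were also set against CTRL. In LPS+DHEA against CTRL, 9 of the 10 genes had fitted values above 0 (51.2% of all genes did), all but Nfkbie. Nfkb2 had a log2 fold change of 0.81 (SE 0.23, edgeR adjusted p = 0.481), Tnip1 0.7 (SE 0.15, edgeR adjusted p = 0.19), Tnfaip3 0.52 and Nfkbia 0.43, and the listed median was 0.35 against 0.006 over all genes. None was called by edgeR, beside 0.136% of all genes called higher, and 4 were higher at an unadjusted p under 0.05 (Nfkb1, Nfkb2, Nfkbia and Tnip1), beside 3.32% of all genes. Tnip1 was called with DESeq2 (adjusted p = 0.0215, against 0.0215 to 0.806 over its 17 alternatives), beside 127 of 26414 genes called higher. Both LPS+DHEA libraries were above both CTRL libraries in 7 listed genes, beside 18.6% of all genes.

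In LPS+DHEA+Nb against CTRL, the fitted values ran from -0.43 (Tnfaip3, 95% interval -0.98 to 0.11) to 0.39 (Nfkbie, -0.46 to 1.23), with a median of 0.11 against 0.002 over all genes. Tnip1 had 0.23 (-0.11 to 0.56) and Nfkbia 0.25 (-0.1 to 0.59). No listed gene was called by edgeR, DESeq2 or limma-voom or had an unadjusted edgeR p under 0.05, beside 0.0303% and 4.28% of all genes. Both LPS+DHEA+Nb libraries lay above both CTRL libraries for Tnip1 and Nfkbia, beside 16.4% of all genes, and below them for Relb, beside 16.5%. These intervals do not show that the levels were equal.

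In a single test for any difference among the 4 groups, Tnip1 had the smallest p of the listed genes (0.000403, edgeR adjusted p = 0.103). Tnfaip3 (edgeR adjusted p = 0.464), Nfkb2 (0.615) and Nfkbia (0.856) also had an unadjusted p under 0.05, so 4 of 10 did, beside 5.4% of all genes, and none was called, beside 0.239% of all genes. DESeq2 (371 of 26414 genes called), and edgeR without a filter on low counts (155 of 38350), called Tnip1 in that test.

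Described over the 8 libraries, the 4 LPS and LPS+DHEA libraries lay above the 4 LPS+DHEA+Nb and CTRL libraries in 7 listed genes (Nfkb1, Nfkb2, Relb, Nfkbia, Bcl3, Tnfaip3 and Tnip1), beside 3.07% of all genes. This grouping was chosen after the values were seen, and no test was made of it. The mean of the 10 genes' standardised log2 CPM was -0.56 and -0.41 in LPS+DHEA+Nb, 0.59 and 0.42 in LPS+DHEA, 0.39 and 0.91 in LPS, and -0.72 and -0.64 in CTRL. The gene nearest to that mean was Tnip1 (Pearson r = 0.93 over 8 libraries), followed by Relb (0.91), Nfkb2 (0.89) and Bcl3 (0.84), and each of these is part of the mean. Rela and Nfkbiz followed it loosely (0.41 each), and Nfkbie did not (-0.18). Between pairs of listed genes, Nfkb2 and Nfkbia had the highest r (0.9), then Relb and Tnfaip3 (0.86) and Relb and Bcl3 (0.84), and Nfkb1 and Nfkbie had the lowest (-0.44). All points share the library and its group, so these are descriptions without a test.

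Outside the list, among 14102 genes with a symbol and a mean of at least 1 CPM, the closest to that mean were Axl (Pearson r = 0.993, Spearman rho = 0.929 over 8 libraries), Actn1 (0.982 and 0.976), Dock3 (0.98 and 0.976), Olfr273 (0.976 and 0.881) and Igf2r (0.973 and 0.881). Axl, a receptor tyrosine kinase, had 43.5 and 42.9 CPM in LPS+DHEA+Nb, 56.6 and 54.1 in LPS+DHEA, 53.2 and 60.1 in LPS, and 41.8 and 43 in CTRL. Olfr273, annotated as an olfactory receptor, had 0.0787 and 0.0631 CPM in LPS+DHEA+Nb, 2.57 and 2.29 in LPS+DHEA, 1.91 and 3.33 in LPS, and 0.0639 and 0.0313 in CTRL. Both were higher in all 4 LPS and LPS+DHEA libraries than in the other 4, as were 3.07% of all genes. They were chosen for their r to a mean that has this split, so the split is no separate result.

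The other genes of the pathway were followed by role. Of 15 receptors and ligands that activate NF-kB, 14 were tested. In LPS against CTRL edgeR called 1 higher (Tlr2, a receptor for bacterial lipoproteins), beside 0.257% of all genes. DESeq2 called 3 (Tlr2, Tnfrsf1a and Tnfrsf1b), beside 226 of 26414 genes that DESeq2 called higher. Tlr2 had 1.75 and 1.76 CPM in LPS and 0.511 and 0.328 CPM in CTRL (log2 fold change 2.06, SE 0.35, edgeR adjusted p = 0.0423). The Tlr2 call was lost in 9 of 17 alternatives: without any 1 of the CTRL, LPS or LPS+DHEA libraries, with limma-voom, with the replicate block and with only the 2 groups (adjusted p from 0.00176 to 0.201 over the 17). Tlr2 had 1.67 and 1.8 CPM in LPS+DHEA+Nb and 1.94 and 1.6 CPM in LPS+DHEA, so its CTRL libraries stood below the other 6. Tnfrsf1a, a receptor for tumour necrosis factor, had 19.5 and 19.3 CPM in LPS+DHEA+Nb, 22.6 and 24.7 in LPS+DHEA, 26 and 29.7 in LPS, and 17.7 and 21.4 in CTRL, with edgeR adjusted p-values of 0.241 for LPS+DHEA+Nb against LPS and 0.205 for LPS against CTRL. With DESeq2 its adjusted p was 0.0452 and 0.0406 in those comparisons (up to 0.705 and 0.752 over the 17 alternatives of each). Cd14, the co-receptor that hands LPS to its receptor, had 1.68 and 0.978 CPM in LPS+DHEA+Nb, 5.32 and 3.11 in LPS+DHEA, 4.17 and 3.98 in LPS, and 1.97 and 1.53 in CTRL. Its edgeR adjusted p was 0.154 for LPS+DHEA+Nb against LPS and 0.286 for LPS against CTRL. No gene of this list was called by edgeR in the other 5 comparisons, with 0 to 5 of 14 per comparison at an unadjusted p under 0.05. Of all genes, 6.56% had such a p in LPS+DHEA+Nb against LPS, 3.51% in LPS+DHEA against LPS, 4.4% in LPS+DHEA+Nb against LPS+DHEA, 5.72% in LPS+DHEA against CTRL, 4.28% in LPS+DHEA+Nb against CTRL and 7.11% in LPS against CTRL. DESeq2 called 2 lower in LPS+DHEA+Nb against LPS (Cd14 and Tnfrsf1a), beside 152 of 26414 genes, and Cd14 lower in LPS+DHEA+Nb against LPS+DHEA, beside 70. It called Tlr2 higher in LPS+DHEA and in LPS+DHEA+Nb against CTRL, beside 127 and 46 of 26414 genes. limma-voom called none of this list in any comparison. The list's median log2 fold change was -0.52 in LPS+DHEA+Nb against LPS and 0.57 in LPS against CTRL.

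None of 27 IkB kinase and adaptor genes was called by edgeR, DESeq2 or limma-voom in any of the 6 comparisons, with at most 2 per comparison at an unadjusted edgeR p under 0.05, beside 3.51% to 7.11% of all genes. Their median was -0.12 in LPS+DHEA+Nb against LPS and 0.05 in LPS against CTRL. Ikbke, an IkB kinase-related gene, had the smallest p among them in those comparisons. It had 1.15 and 2.22 CPM in LPS+DHEA+Nb, 3.15 and 3.06 in LPS+DHEA, 3.12 and 4.19 in LPS, and 1.21 and 1.64 in CTRL, with edgeR adjusted p-values of 0.451 and 0.219 for LPS+DHEA+Nb against LPS and for LPS against CTRL. The catalytic subunit Ikbkb had 16.9 and 20.3 CPM in LPS+DHEA+Nb, 19.7 and 23.1 in LPS+DHEA, 23.6 and 20 in LPS, and 20.4 and 18.6 in CTRL, and the groups overlapped.

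None of the 16 other family and feedback genes was called by edgeR or limma-voom in any comparison. At most 3 per comparison had an unadjusted edgeR p under 0.05, beside 3.51% to 7.11% of all genes. DESeq2 called only Tnip3, higher in the 3 comparisons against CTRL. Of 26414 genes, DESeq2 called 226 higher in LPS, 127 in LPS+DHEA and 46 in LPS+DHEA+Nb against CTRL. The median of the 16 genes was 0 in LPS+DHEA+Nb against LPS and -0.01 in LPS against CTRL. Rel, the remaining subunit gene, had 4.77 and 6.06 CPM in LPS+DHEA+Nb, 5.59 and 6.64 in LPS+DHEA, 6.14 and 5.58 in LPS, and 4.97 and 5.17 in CTRL. Tnip3, a relative of Tnip1, had 26 and 25 counts in LPS+DHEA+Nb, 39 and 25 in LPS+DHEA, 47 and 5 in LPS, and 0 in both CTRL libraries, with an edgeR adjusted p of 0.184 in LPS against CTRL. Tnip3 was detected in all 6 libraries from LPS-injected mice, and its LPS+DHEA+Nb values lay within the range of its LPS values.

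Of 28 genes commonly induced by NF-kB, 24 were tested, and 3 rose in LPS against CTRL, beside 0.257% of all genes: Icam1, a leukocyte adhesion molecule, Saa3, an acute phase protein, and Lcn2, an iron-binding protein. Icam1 had 2.85 and 2.7 CPM in LPS+DHEA+Nb, 6.9 and 6.93 in LPS+DHEA, 7.92 and 8.17 in LPS, and 1.87 and 1.92 in CTRL. The same 3 genes fell in LPS+DHEA+Nb against LPS, beside 0.129% of all genes, with log2 fold changes of -1.54 for Icam1 (SE 0.18, edgeR adjusted p = 0.006), -3.25 for Saa3 (SE 0.27, edgeR adjusted p = 0.0182) and -1.39 for Lcn2 (SE 0.12, edgeR adjusted p = 0.00344). In LPS against CTRL they were 2.08 for Icam1, 6.85 for Saa3 and 1.35 for Lcn2, with edgeR adjusted p-values of 0.000737, 0.00144 and 0.00218. Both comparisons use the LPS libraries. In LPS+DHEA+Nb against LPS+DHEA, Icam1 (-1.32, edgeR adjusted p = 0.0311) and Lcn2 (-0.96, edgeR adjusted p = 0.0365) fell, beside 0.0568% of all genes. The fold changes there do not use the LPS libraries, but the p-values do, through the spread shared by the fit. In LPS+DHEA against CTRL, which shares the LPS+DHEA libraries with that comparison, Icam1 (1.87), Saa3 (6.33) and Lcn2 (0.91) rose, with edgeR adjusted p-values of 0.00262, 0.00392 and 0.0331, beside 0.136% of all genes. None of the 24 was called in LPS+DHEA against LPS by edgeR, DESeq2 or limma-voom, and 3 were lower at an unadjusted edgeR p under 0.05, beside 1.78% of all genes. All 17 alternatives kept the calls of the 3 genes in LPS against CTRL and those of Icam1 and Saa3 in LPS+DHEA against CTRL. The calls of Icam1 and Lcn2 in LPS+DHEA+Nb against LPS were lost with only the 2 groups compared (adjusted p = 0.0601 and 0.0659, the highest over the 17). That of Saa3 was lost in 7 alternatives: without any 1 of the LPS+DHEA or LPS+DHEA+Nb libraries, with no filter, with the replicate block and with only the 2 groups (up to 0.109). In LPS+DHEA+Nb against LPS+DHEA, the Icam1 call was lost in 7 alternatives (without any 1 of the LPS+DHEA or LPS+DHEA+Nb libraries, with limma-voom, with the block and with the 2 groups, up to 0.13). The Lcn2 call there was lost in 8 (without any 1 of the CTRL, LPS or LPS+DHEA libraries, with the block and with the 2 groups, up to 0.236). In LPS+DHEA against CTRL, the Lcn2 call was lost in 7 (without any 1 of the same libraries and with the block, up to 0.243). The target list had medians of -0.66 in LPS+DHEA+Nb against LPS and 0.96 in LPS against CTRL, against -0.37 and 0.42 for the 10 genes. The target list was drawn up with results of these libraries known and is not independent evidence of its direction.

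**Figure D5:**
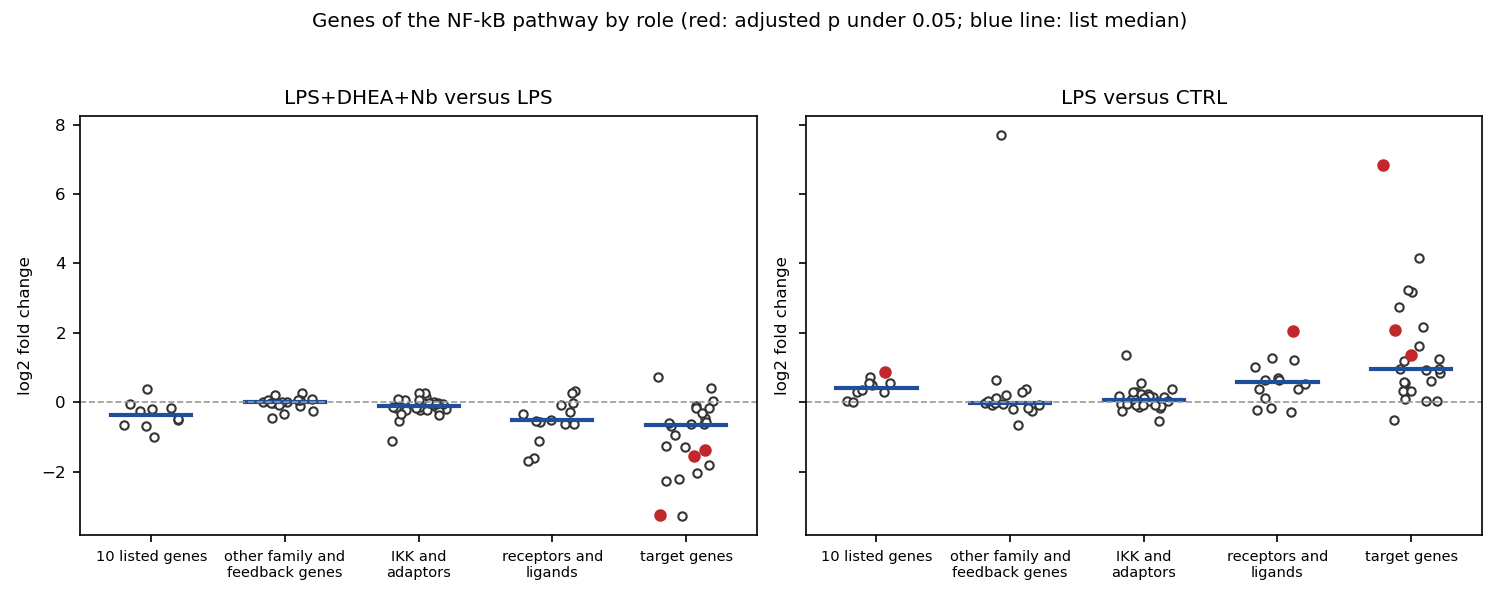
Fitted log2 fold change of each tested gene (points, red where the adjusted p was under 0.05) in the listed genes and 4 other pathway lists, with the median of each list (blue lines), for LPS+DHEA+Nb versus LPS and LPS versus CTRL. The target genes have the medians farthest from 0 (-0.66 and 0.96); the topmost point of the family and feedback genes is Tnip3, whose 0 counts in both CTRL libraries make its height depend on the prior count of the fit.

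Cell type markers were summed in the same libraries. The summed level of 13 neutrophil markers was 4.39 to 5.58 CPM in LPS+DHEA+Nb, 7.03 to 9.17 in LPS+DHEA, 8.17 to 10.9 in LPS and 3.97 to 4.57 in CTRL. S100a8 was the marker of these called higher in LPS and in LPS+DHEA against CTRL, beside 0.257% and 0.136% of all genes. S100a8 had 2 and 6 counts in LPS+DHEA+Nb, 107 and 34 in LPS+DHEA, 81 and 49 in LPS and 0 in both CTRL libraries. Of the 8 neutrophil markers tested, 7 had fitted values above 0 in LPS against CTRL, beside 49.6% of all genes. S100a9 averaged 1.82 CPM in LPS and 0.0391 in CTRL, and Clec4d 1.16 and 0.0632, but neither was called. Mpo averaged 3.14 CPM in both groups, a large part of the sum in CTRL. The granule genes Elane and Camp and the surface marker Ly6g were at 0 in both LPS libraries. The sum of 14 monocyte and macrophage markers was 86.2 to 89.8 CPM in LPS+DHEA+Nb, 85.8 to 92.1 in LPS+DHEA, 89.9 to 95.2 in LPS and 81.9 to 91.3 in CTRL, and the 4 ranges lay close together. Single markers moved in opposite directions, with 8 of the 14 above 0 in LPS against CTRL, beside 49.6% of all genes. Itgam averaged 6 ± 4.5 CPM in LPS and 0.56 ± 0.159 in CTRL (SD, n = 2 each), and Cx3cr1 1.23 ± 0.177 and 3.13 ± 0.364. Neither was called in that comparison, and in LPS+DHEA+Nb Itgam averaged 1.78 CPM and Cx3cr1 3.51. Of the 14, Marco was called higher in LPS+DHEA against CTRL (log2 fold change 4.43, edgeR adjusted p = 0.0289) and in LPS against CTRL (4.31, edgeR adjusted p = 0.0186), beside 0.136% and 0.257% of all genes. Cd163 was called lower in LPS+DHEA+Nb against LPS (-2.95, edgeR adjusted p = 0.0318), beside 0.129%. Marco averaged 4.78 ± 3.09 CPM in LPS+DHEA+Nb, 5.68 in LPS+DHEA, 5.2 in LPS and 0.261 in CTRL. Cd163 averaged 0.315, 0.794, 2.46 and 1.95 CPM in the same groups. In LPS against CTRL, the S100a8 call was lost without either CTRL library, with limma-voom and with counts divided by 4 (adjusted p of up to 0.564), and the Marco call without either CTRL library or LPS+DHEA 2, with limma-voom and with the replicate block (up to 0.332). In LPS+DHEA against CTRL, S100a8 was lost in 7 of 17 alternatives, among them without CTRL 1, CTRL 2 or LPS+DHEA 1 (up to 0.774), and Marco in 8, among them without CTRL 1, CTRL 2, LPS 2, LPS+DHEA 1 or LPS+DHEA 2 (up to 0.487). The Cd163 call was lost without LPS 1, LPS+DHEA 1, LPS+DHEA 2 or LPS+DHEA+Nb 1, with limma-voom and with only the 2 groups (up to 0.223).

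The 10 endothelial markers summed to 60.2 to 61.8 CPM in LPS+DHEA+Nb, 61.7 to 68.7 in LPS+DHEA, 67.1 to 77.3 in LPS and 54.6 to 57.9 in CTRL. None was called by edgeR in any of the 6 comparisons of groups, beside 5 to 78 of 26414 genes per comparison. Of the 10, 9 had fitted values above 0 in LPS against CTRL (49.6% of all genes) and 0 in LPS+DHEA+Nb against LPS (50.4%). The 6 peritubular myoid markers summed to 382 to 412 CPM in LPS+DHEA+Nb, 453 to 473 in LPS+DHEA, 463 to 485 in LPS and 397 to 411 in CTRL. Actg2, the largest part of this sum, averaged 290, 293, 295 and 304 CPM in these groups. Acta2, smooth muscle actin, was called in 4 comparisons, in which 0.0568% to 0.257% of all genes were called in the same direction. Its log2 fold changes were -0.92 in LPS+DHEA+Nb against LPS and -0.84 in LPS+DHEA+Nb against LPS+DHEA (edgeR adjusted p = 0.00443 and 0.0172), and 1.02 in LPS+DHEA against CTRL and 1.1 in LPS against CTRL (edgeR adjusted p = 0.00262 and 0.000737), and all 17 alternatives kept these calls. Leydig cell markers (7 genes, none called) had higher sums in LPS+DHEA+Nb and CTRL than in the other groups, at 823 to 942 CPM in LPS+DHEA+Nb, 628 to 646 in LPS+DHEA, 699 to 727 in LPS and 869 to 1020 in CTRL. Insl3, the largest part, averaged 532, 493, 560 and 574 CPM in these groups, and Cyp17a1 104, 26.5, 30.8 and 131. Of the 7 genes, 1 (Star) had a fitted value above 0 in LPS against CTRL, beside 49.6% of all genes. Germ cell markers (11 genes) summed to 14400 to 14900 CPM in LPS+DHEA+Nb, 13300 to 14800 in LPS+DHEA, 13200 to 14100 in LPS and 15300 to 16100 in CTRL. Most of this sum is Tnp1, Tnp2, Prm1 and Prm2 (means of 1960, 4760, 2920 and 5060 CPM in CTRL). Ddx4 averaged 517 CPM in LPS+DHEA+Nb, 513 in LPS+DHEA, 516 in LPS and 514 in CTRL. Of the 11 genes, 4 had fitted values above 0 in LPS against CTRL, beside 49.6% of all genes. Sertoli cell markers (8 genes) lay at 155 CPM in LPS+DHEA+Nb, 161 to 164 in LPS+DHEA, 168 to 181 in LPS and 152 to 162 in CTRL. The part of these cell types in the levels of the 10 genes was not tested.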

How the data were processed

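RNA-seq values per gene from 8 testis libraries were analysed, 2 in each of the groups LPS+DHEA+Nb, LPS+DHEA, LPS and CTRL, grouped by the titles of the labels. Per the labels' protocols, a stranded KAPA kit was used. The submitters' processing notes name HISAT, featureCounts (1.5.0-p3) and GRCm38, and whether counting used strand is not stated in them. The deposited values were read as estimated counts for each Ensembl gene. Of the values between 1 and 40, 33.5% can be divided by 4, and an even spread gives 25%. Between 1000 and 10000 the share was 25.0%. The excess at low values does not by itself show that the counts were estimated, and the step that made it is not stated. The plan had assumed raw counts, but the values were already whole, so count tests were kept and no rounding was needed. Most values cannot be divided by 4, so not every fragment was counted 4 times. An alternative divided the counts by 4, to see the results at a lower depth.

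Symbols and merged exon lengths came from GENCODE M21 (GRCm38), and promoter windows from RefSeq (GRCm38.p6). Of 55421 identifiers, 55154 had a symbol. In edgeR 4.0.16, filterByExpr (at least 10 counts, total of at least 15) kept 26414 genes, and TMM factors were 0.985 to 1.015. All 8 libraries entered 1 quasi-likelihood fit of the 4 groups, leaving 4 residual degrees of freedom (glmQLFit robust, glmQLFTest, R 4.3.3), and the common coefficient of biological variation was 0.231. P-values were adjusted by Benjamini-Hochberg over all genes tested, and a gene was called under 0.05. The SE is the size of the log2 fold change divided by the square root of F, and CPM uses the scaled library sizes. The script was tested on simulated data.

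The 10 genes, the pathway and marker lists and the alternatives were chosen with earlier results of these data known. All 10 genes are named in every comparison. Of each other list the text names called members and some of the up to 4 with the smallest p. Rel, Ikbkb, the level of Tnp1 and Prm1, and some neutrophil markers are named besides. Of these markers, Elane, Camp and Ly6g were chosen after their values of 0 were seen, and Mpo after its level was seen. Genes alike in pattern are those with the highest Pearson r of log2 CPM (prior count 2) to the mean of the 10. Sequences were shown for the called gene and for Nfkbia and Nfkbie. The alternatives tried were other tools (DESeq2 1.42.0 and limma-voom from limma 3.58.1), other scaling in edgeR (size factors of DESeq2, or library size only), other filters (none, or 1 CPM in 2 or more libraries), a replicate number block, counts divided by 4, the 2 groups alone, and each library left out.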

Additional observations from a re-analysis of the deposited data

How the results depend on the processing

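Of 1020 log2 fold changes of the 10 genes under an alternative, 980 kept their sign and their side of the threshold, 8 lost and 2 gained a call, all for Tnip1, and 30 changed sign, all of genes that were not called. Between LPS and CTRL, 1 listed gene was called, and 0 with limma-voom or with only the 2 groups compared (Tnip1 adjusted p = 0.0703 and 0.0961). With DESeq2, 1 gene (Tnip1) was called in LPS+DHEA+Nb against LPS, in LPS+DHEA against CTRL and for any difference, and without a filter on low counts 1 (Tnip1) for any difference, each against 0. Leaving out 1 library gave 0 to 1 called in LPS against CTRL. The cause was not tested. With all libraries kept, the values that changed sign were Nfkbie in LPS against CTRL (-0.02 with limma-voom and with the replicate block) and Nfkbiz in LPS+DHEA+Nb against LPS+DHEA (0.02 with limma-voom). Leaving out 1 library each in turn, the genes that changed sign ranged as follows, as log2 fold changes: in LPS against CTRL Rela -0.03 to 0.1 and Nfkbie -0.49 to 0.39. In LPS+DHEA against LPS Nfkb1 -0.08 to 0.12, Rela -0.09 to 0.11, Nfkbia -0.15 to 0.01, Nfkbie -0.42 to 0.45, Nfkbiz -0.6 to 0.19, Bcl3 -0.54 to 0.24 and Tnfaip3 -0.12 to 0.05. In LPS+DHEA+Nb against LPS+DHEA Rela -0.18 to 0.02 and Nfkbiz -0.36 to 0.43. In LPS+DHEA against CTRL Rela -0.05 to 0.15, Nfkbie -0.37 to 0.3 and Nfkbiz -0.31 to 0.47. In LPS+DHEA+Nb against CTRL Nfkb2 -0.01 to 0.49, Rela -0.09 to 0.03, Nfkbiz -0.02 to 0.25 and Bcl3 -0.35 to 0.06.

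Deviations of same-numbered libraries correlated at -0.03 to 0.03 over 26414 genes, so no shared shift by replicate number was seen. This does not exclude that same-numbered libraries were paired or handled together. With the replicate block Tnip1 was still called in LPS against CTRL (adjusted p = 0.0393), no other listed gene was, and the count over all genes was 62 against 78. Over all genes, calls in LPS against CTRL were 293 with DESeq2, 140 with no filter and 49 with limma-voom, and leaving out 1 library gave 66 to 118. With DESeq2, with no filter and with each library left out, they were 207, 87 and 43 to 88 in LPS+DHEA+Nb against LPS (45 in the edgeR fit reported), 35, 10 and 10 to 24 in LPS+DHEA against LPS (5), 116, 42 and 16 to 64 in LPS+DHEA+Nb against LPS+DHEA (23), 183, 80 and 27 to 65 in LPS+DHEA against CTRL (40), 76, 17 and 8 to 37 in LPS+DHEA+Nb against CTRL (8), and 371, 155 and 65 to 131 for any difference (63). With the 2 groups alone they were 19, 20, 40 and 61 in the first 4 of these, and with limma-voom 11, 23 and 4 in the last 3 comparisons of groups. The other scalings changed no sign among the 10 genes. With 2 libraries per group, a p that misses the threshold does not show equal levels, and Nfkbie, with 74 to 152 counts per library, had the widest intervals of the 10 genes. Groups of 2 are too small for a test of single outlying libraries.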
